A study of Mus musculus with 2 samples.

Results

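The genes described here are 38 targets of the transcription factor ATF4 and cytosolic aminoacyl-tRNA synthetases, and they were compared between 2 cultures of the mouse line M210B4, a stromal cell line from bone marrow. 1 culture received an antibody that activates CD84, and the other an IgG1 isotype antibody, each for 24 h in medium with 2% serum. CD84 is a self-binding cell-surface receptor of the SLAM family. RNA of each culture was hybridised to 1 Affymetrix Mouse Gene 2.0 ST array, so every difference below is between 2 arrays, with no replicate, no error and no test. Members were taken by symbol, using only probe sets that carry 1 gene symbol and the brightest probe set of each gene. In this way 35 of the 38 were measured, out of 22180 genes on the array. Aars and Slc6a9 lie only on probe sets that carry several symbols, Pycr1 is unnamed in the annotation used, and none of the 3 has a value here.

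ATF4 is the main transcription factor of the integrated stress response. Kinases that sense amino acid shortage, unfolded protein, viral RNA or haem deficiency phosphorylate the initiation factor eIF2, which lowers general translation while translation of Atf4 mRNA increases. ATF4 then pairs with C/EBP family proteins on composite sites and activates genes that make amino acids, import them and attach them to tRNA. Stromal cells secrete much collagen, which is rich in glycine and proline, and depend on these routes for its building blocks.

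The composite site can be read in the promoters of several members, and the sequences are shown because such sites are the known route by which ATF4 acts on its targets. RefSeq promoter sequences (GRCm38.p6) were held for 30 of the 38 members. Those without one were Cth, Slc7a3, Slc7a5, Slc1a5, Cars, Lars, Nars and Wars. The 250 bases before each start were searched on both strands for TGATGNAA, the core of the C/EBP-ATF composite site, whose reverse complement is TTNCATCA. The motif was found for 8 of the 30 members (26.7%), namely Chac1, Vldlr, Asns, Pycr1, Pck2, Aars, Gars and Tars, and for 1056 of 27025 genes in all (3.91%). A match describes letters in a window and does not show binding. Members were listed as ATF4 targets, so their higher share is no result of these arrays. Sites outside the 250 bases were not searched, so a window without a match does not make a gene a non-target. In the stretches below, written along the gene's strand from 5′ to 3′ and ending at or before the transcription start, capitals mark the match.
Chac1 (chr2:119351023-119351082, plus strand): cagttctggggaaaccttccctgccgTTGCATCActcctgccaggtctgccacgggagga
Asns (chr6:7693210-7693258, minus strand): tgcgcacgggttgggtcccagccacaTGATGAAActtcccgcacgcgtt
Pck2 (chr14:55540137-55540196, plus strand): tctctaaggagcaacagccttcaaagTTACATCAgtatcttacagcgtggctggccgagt
Gars (chr6:55037945-55038000, plus strand): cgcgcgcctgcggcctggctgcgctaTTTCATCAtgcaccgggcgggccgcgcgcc
Tars (chr15:11399659-11399699, minus strand): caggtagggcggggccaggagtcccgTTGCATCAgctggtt

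The match began 193 bases before the start in Chac1, 103 in Pck2, 30 in Gars, 23 in Asns and 15 in Tars. Chac1 and Tars carry the same 8 letters. Of the 6 measured members with the motif, 3 had a higher value after anti-CD84 (Pck2, Asns and Chac1) and 3 a lower one (Gars, Tars and Vldlr). Their differences ran from -0.40 to 0.56 with a median of 0.08 on the log2 scale. The 21 measured members whose windows lacked the motif had differences from -0.55 to 0.57 and a median of 0.14, with 12 higher and 9 lower.

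The arrays carried 41345 probe sets with median log2 values of 4.87 (anti-CD84) and 4.88 (IgG1). A gene counted as detected when at least 1 array exceeded 4.84, a working level set at the 95th percentile of 1409 olfactory, vomeronasal and trace amine receptor genes, and 13291 genes did so. Of the marrow stromal markers 9 of 10 were detected, with differences from -0.56 (Thy1, below the level after anti-CD84) to 1.10 (Cxcl12). Col1a1 was at 12.52 and 12.53, Pdgfrb at 11.92 and 11.45, Pdgfra at 10.21 and 9.29, and Lepr below the level on both arrays. Of 7 leukocyte markers 1 was detected, Csf1r, at 4.86 on the anti-CD84 array, while the pan-leukocyte marker Ptprc was at 3.90 and 3.86. Of 4 endothelial markers 2 were above the level, both after IgG1 only, Cdh5 (4.61 and 5.56) and Pecam1 (4.32 and 4.99). Of 3 epithelial markers 2 were detected, Krt8 (5.27 and 5.42) on both arrays and Cdh1 (4.73 and 5.68) after IgG1 only, and the 1 erythroid marker measured, Klf1, was not detected. The part of these differences in the results below was not tested. Cd84 itself was at 4.15 after anti-CD84 and 3.82 after IgG1, below the detection level on both.

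All 35 measured members were detected, 33 of them on both arrays, and as a group they stayed close to their IgG1 values. None was at least 1.5-fold higher after anti-CD84 and 1, Slc7a3, was at least 1.5-fold lower. Past the same fold were 10.7% of all 13291 detected genes in the upward direction and 6.4% in the downward one. At 1.2-fold, 12 members (34.3%) were higher and 6 (17.1%) lower, beside 31.9% and 19.5% of all detected genes. The 29 members with a mean level of 8 or more included 0 at 1.5-fold in either direction, where 7.91% of the 4412 detected genes in that range were past it. Of the 35, 20 (57.1%) had any difference above 0, beside 59% of all detected genes. The median difference was 0.05 over the members and 0.09 over all detected genes. These shares describe 2 arrays and set nothing apart for the members.

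**Figure D1:**
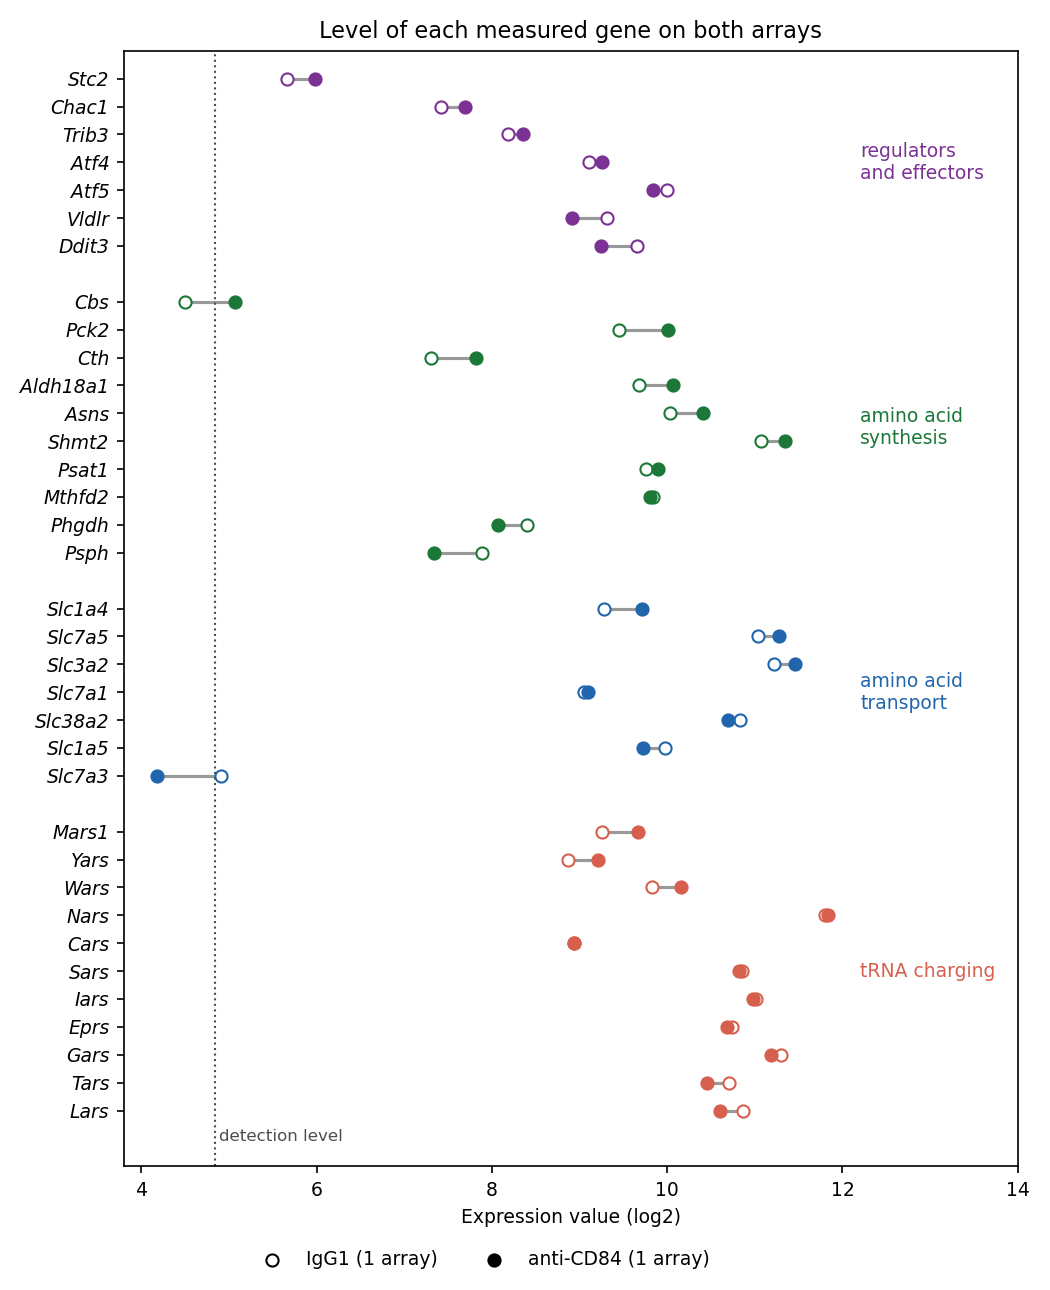
Log2 expression value (x axis) of each of the 35 measured genes on the IgG1 array (open circle) and the anti-CD84 array (filled circle), grouped by role and sorted by difference within a role. Levels can be compared within a gene only, since probe sets differ in brightness. Most pairs of circles lie close together, and Cbs and Slc7a3 alone cross the dotted detection level of 4.84.

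Among the regulators and effectors, Ddit3 and Vldlr were lower after anti-CD84 and the other members lay nearer to their IgG1 values. Atf4 itself was at 9.26 after anti-CD84 and 9.11 after IgG1, a difference of 0.15. Atf5, a related bZIP factor that is also translated preferentially under stress, was at 9.84 and 9.996, a difference of -0.15. Ddit3, which encodes the pro-apoptotic factor CHOP, was at 9.25 after anti-CD84 and 9.66 after IgG1, 1.33-fold lower. At its level, between 9 and 10, the differences of 1376 detected genes had a standard deviation (SD) of 0.33 around a median of 0.11. The difference of Ddit3 was -0.41, which lies at -1.58 SD from that median.

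Trib3, a pseudokinase that restrains ATF4 and CHOP, was at 8.35 and 8.18, which is 1.12-fold higher after anti-CD84. Chac1, an enzyme that degrades glutathione and a target of the ATF4 and CHOP branch, was at 7.70 and 7.42, 1.21-fold higher. The RNAs of Ddit3 and Trib3 had differences of opposite sign. That of Trib3, 0.17, lay only 0.13 SD from the median of genes at its level, and was 0.083 once centred on the median of all detected genes. Vldlr, the receptor for very low density lipoprotein, was at 8.91 and 9.31, 1.32-fold lower, and Stc2, a secreted glycoprotein induced by stress, at 5.98 and 5.66, 1.25-fold higher. The median of the 7 was 0.15 while their mean was -0.01, so the group has no clear sign.

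Enzymes of amino acid synthesis had the highest median difference of the 4 roles, 0.33 over 10 measured members, and 0 of them reached 1.5-fold. At 1.2-fold, 6 (60.0%) were higher and 2 (20.0%) lower, beside 31.9% and 19.5% of all detected genes. The 6 include Cbs, which was at least 1.17-fold higher when counted from the detection level. They also include Shmt2, whose difference of 0.28 became 0.19 once centred on the median of all detected genes, under the 1.2-fold cut of 0.26. Pck2, the mitochondrial phosphoenolpyruvate carboxykinase that feeds serine synthesis when glucose is short, was at 10.01 after anti-CD84 and 9.45 after IgG1, 1.47-fold higher, and 11.7% of all detected genes had a difference at least as high. Asns, the asparagine synthetase and a textbook ATF4 target, was at 10.41 and 10.03, 1.31-fold higher. Aldh18a1, which makes the first committed intermediate of proline synthesis from glutamate, was at 10.07 and 9.68, 1.31-fold higher.

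The serine pathway itself did not move one way. Phgdh, which takes the first step from glycolysis, was at 8.07 after anti-CD84 and 8.40 after IgG1, 1.25-fold lower. Psat1, the aminotransferase of the next step, was at 9.89 and 9.75, 1.10-fold higher. Psph, the phosphatase of the last step, was at 7.33 and 7.89, which is 1.47-fold lower. In Psph the difference was -0.55, the lowest of any member detected on both arrays, and 7.16% of all detected genes had one at least as low. Shmt2, which turns serine into glycine in mitochondria, was at 11.35 and 11.07, 1.21-fold higher. Mthfd2, the mitochondrial folate enzyme downstream of it, was at 9.80 and 9.84, with a difference of -0.03.

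Both enzymes of transsulfuration, the route from homocysteine to cysteine, were higher after anti-CD84. Cth, the enzyme that releases cysteine, was at 7.82 and 7.30, 1.43-fold higher. Cbs, which takes the step before it, was at 5.07 after anti-CD84 and 4.50 after IgG1. Since the IgG1 value was below the detection level, Cbs was at least 1.17-fold higher, counted from that level. Among detected genes with a mean level under 5 the SD of the differences was 0.62, and the difference of Cbs was 0.57. Genes whose mean is below the detection level, Cbs among them, count only where 1 array exceeds it. The filter thus favours large differences in this band, and its SD is no fair measure for Cbs.

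**Figure D2:**
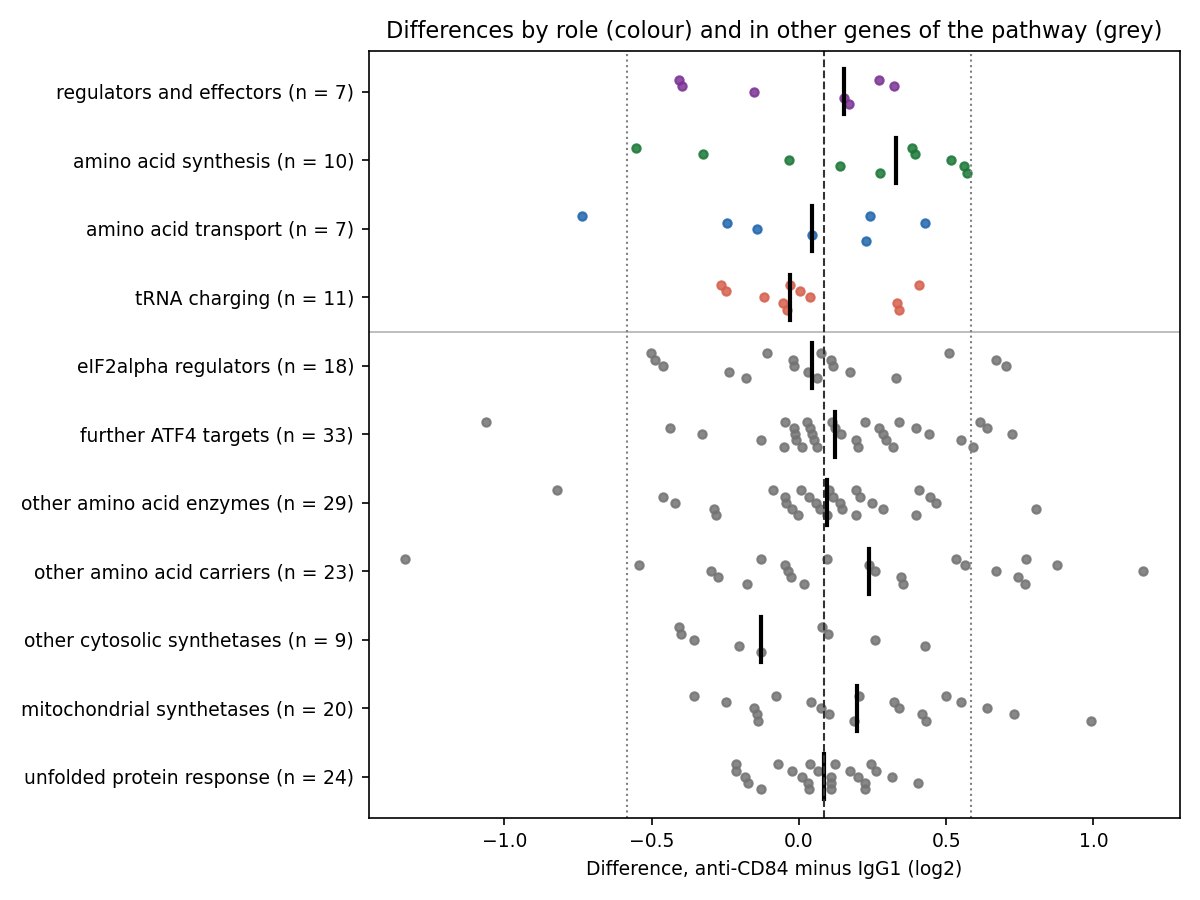
Difference, anti-CD84 minus IgG1 (log2, x axis), of each detected gene of the 4 roles (colour) and of 7 further lists of pathway genes (grey), with a black bar at the median of each. The dashed line is the median of all detected genes (0.09) and the dotted lines mark 1.5-fold in either direction; of the coloured genes only Slc7a3 lies beyond them.

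The amino acid carriers were split, with 4 of 7 measured members above 0 and 3 below. Slc7a5, the carrier of large neutral amino acids, was at 11.27 and 11.03, a difference of 0.24. Its obligate partner Slc3a2, the heavy chain that brings it to the membrane, was at 11.45 and 11.22, a difference of 0.23. The subunits of this heterodimer thus differed alike on these arrays, 1.18-fold and 1.17-fold higher. Slc1a4, a carrier of alanine, serine and cysteine, was at 9.71 and 9.28, 1.35-fold higher.

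Slc1a5, the glutamine carrier, went the other way, at 9.73 after anti-CD84 and 9.97 after IgG1, 1.18-fold lower. It is the only member with a further probe set, which was at 5.14 and 5.49, a difference of -0.35 in the same direction. Slc38a2, a sodium-coupled carrier of small neutral amino acids, was at 10.69 and 10.83, a difference of -0.14. Slc7a1, the general carrier of arginine and lysine, was at 9.09 and 9.04, a difference of 0.05 that becomes negative when the arrays are rescaled. Slc7a3, a related cationic carrier, was at 4.17 after anti-CD84 and 4.91 after IgG1. With the anti-CD84 value below the detection level it was at least 1.05-fold lower, and its measured difference of -0.74 became -0.071 with the low value set to that level. The median of the 7 was 0.05 and their mean -0.03.

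The synthetases, which attach amino acids to their tRNAs, varied least of the 4 roles, with an SD of 0.23 between members. They are also bright, and for all 560 detected genes with a mean level between 10 and 11 the SD was 0.27. Their differences ran from -0.27 to 0.41 with a median of -0.03 and a mean of 0.03. Mars1, the methionyl enzyme, was at 9.67 after anti-CD84 and 9.26 after IgG1, 1.33-fold higher. Yars, the tyrosyl enzyme, was at 9.21 and 8.87, 1.27-fold higher, and Wars, the tryptophanyl enzyme and also an interferon-inducible gene, was at 10.16 and 9.82, 1.26-fold higher. At the other end, Lars, the leucyl enzyme, was at 10.60 and 10.87, 1.202-fold lower, and Tars, the threonyl enzyme, was at 10.46 and 10.70, 1.19-fold lower.

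The remaining 6 charging enzymes lay within 1.1-fold on both arrays. Gars, the glycyl enzyme, was at 11.18 and 11.30, a difference of -0.12. Sars, the seryl enzyme, was at 10.82 and 10.85, a difference of -0.03. Eprs, which charges glutamate and proline tRNAs, was at 10.68 and 10.74, and Iars, the isoleucyl enzyme, at 10.97 and 11.02. Cars, the cysteinyl enzyme, was at 8.93 on both arrays, and Nars, the asparaginyl enzyme, at 11.83 and 11.80. All of these differed by less than Gars, and the differences of Cars and Nars change sign when the arrays are rescaled by centring. The SD between members, 0.23 for charging, was 0.31 for the regulators and effectors and 0.39 for both synthesis and transport.

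Most mitochondrial synthetases have genes of their own, and these genes are not among the members. The mitochondrial list holds no separate gene for the glycyl or the lysyl enzyme, and Gars and Kars are counted as cytosolic here. With the cytosolic enzymes that are not members added, 18 cytosolic synthetases had differences from -0.41 to 0.41 and a median of -0.04, with 0 past 1.5-fold. Farsa and Farsb, the subunits of the phenylalanyl enzyme, were the lowest of these, at -0.41 and -0.40. The 16 mitochondrial synthetases had a median of 0.15 (0.20 for the plotted list of 20, which adds Gatb, Gatc, Qrsl1 and the cytosolic relative Tarsl2), with 3 at least 1.5-fold higher and 0 lower, where 10.7% and 6.4% of all detected genes were past that fold. Tars2 was at 7.39 after anti-CD84 and 6.40 after IgG1, 1.99-fold higher. Lars2 was at 7.24 and 6.51, 1.66-fold higher, and Vars2 at 7.19 and 6.56, 1.56-fold higher.

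For 12 amino acids 1 cytosolic gene was set beside 1 mitochondrial one. The threonine pair is Tars and Tars2, at -0.25 and 0.99, and leaves out the cytosolic relative Tarsl2, which differed by 0.32. The mitochondrial difference was the higher in 9 and the cytosolic one in 3, those of methionine, arginine and tyrosine. Near ties are counted among the 9, with Wars2 at 0.341 against Wars at 0.333, and Cars2 at 0.039 against Cars at 0.002. Nars2 has 2 probe sets, and the brighter one was used. With all probe sets averaged, the median of the plotted mitochondrial list went from 0.20 to 0.146. Of the 16 mitochondrial enzymes 15 had a mean level under 8, where the arrays spread more, against 1 of the 18 cytosolic ones, and the part of level in this contrast was not tested.

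**Figure D3:**
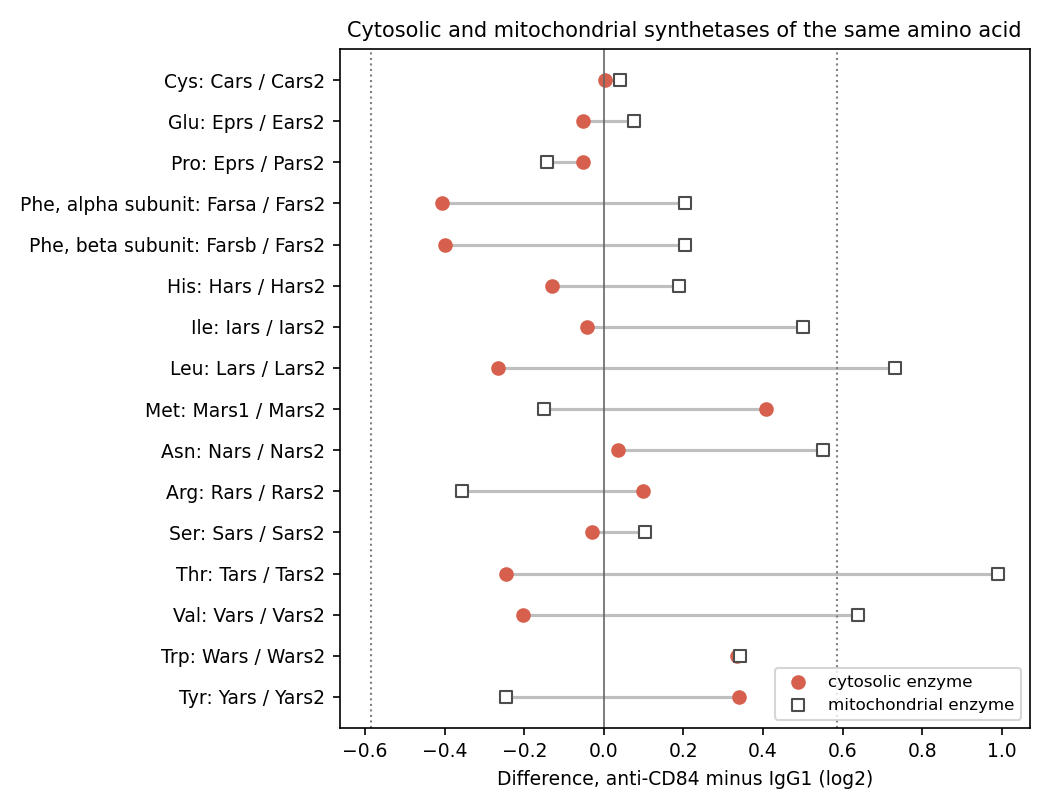
Difference, anti-CD84 minus IgG1 (log2, x axis), of the cytosolic (red circle) and mitochondrial (open square) synthetase of each amino acid; Eprs and Fars2 appear in 2 rows each. Dotted lines mark 1.5-fold, which Tars2, Lars2 and Vars2 pass and no cytosolic enzyme does.

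Set against the spread of genes at the same level, the members were not unusual. Of the 35, 24 (68.6%) lay within 1 SD of the median difference of their level band, beside 70.8% of all detected genes. All 35 lay within 2 SD, beside 95.3% of all detected genes. The farthest below were Psph at -1.69 SD, Ddit3 at -1.58 SD, Vldlr at -1.55 SD and Lars at -1.34 SD, and the farthest above was Pck2 at 1.39 SD. This spread is that between genes and is not an error of any single gene. For Cbs and Slc7a3, in the band under 5, it is also shaped by the detection filter.

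**Figure D4:**
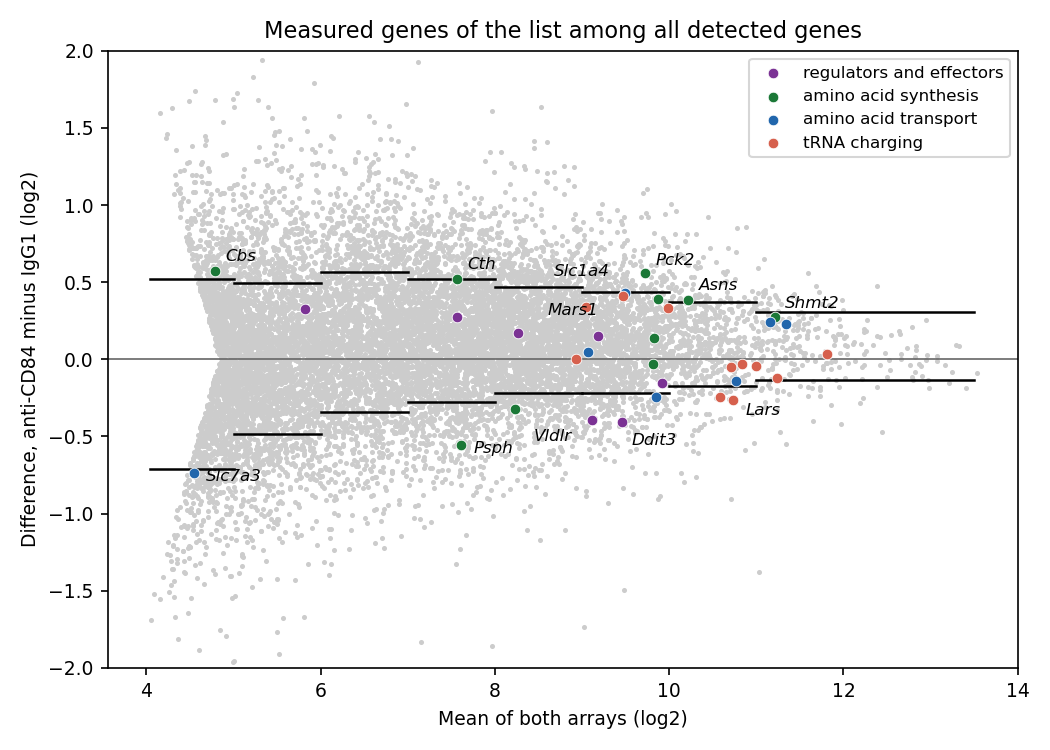
Mean of both arrays (log2, x axis) against the difference, anti-CD84 minus IgG1 (log2, y axis), for all detected genes (grey; 12 genes beyond 2 in either direction are outside the plot) and the 35 members by role. Black steps lie 1 SD above and below the median of each level band, and the members fall on both sides of 0 within or near these steps.

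Upstream of ATF4, the genes that act on eIF2 passed 1.5-fold about as often as all detected genes did. Of 18 detected kinases, phosphatases and factors that act on eIF2, 2 were at least 1.5-fold higher (11.1%, beside 10.7% of all detected genes) and 0 lower (beside 6.4%), with a median of 0.05. The amino acid sensor Eif2ak4 (GCN2) differed by 0.07, the unfolded protein sensor Eif2ak3 (PERK) by 0.03 and the haem sensor Eif2ak1 by 0.17. Eif2ak2 (PKR), which senses double-stranded RNA, was at 8.55 after anti-CD84 and 8.04 after IgG1, 1.42-fold higher. Ppp1cc, a catalytic subunit of protein phosphatase 1, was 1.63-fold higher and Dele1, which relays mitochondrial stress, 1.59-fold higher. Of the phosphatase-targeting subunits that reverse eIF2 phosphorylation, the inducible Ppp1r15a differed by -0.015 and the constitutive Ppp1r15b by -0.50.

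Further ATF4 targets that are not members numbered 33 detected, of which 4 were at least 1.5-fold higher (12.1%, beside 10.7% of all detected genes) and 1 lower (3.03%, beside 6.4%). Their median was 0.12. The 4 were Cdkn1a (1.65-fold), Sesn3 (1.56-fold), Bbc3 (1.53-fold) and Map1lc3b (1.51-fold), and Cdkn1a and Bbc3 are also textbook targets of p53. Adm2 was the lower one, at 4.65 after anti-CD84 and 5.71 after IgG1, at least 1.83-fold lower when counted from the detection level. Atf3, a stress-induced bZIP factor, was at 7.13 and 7.46, and Slc7a11, the cystine importer, at 6.42 and 6.55. Sesn2, which senses leucine for mTORC1, was at 7.61 and 7.17, 1.36-fold higher. Centred on the median of all detected genes, 1 of these targets was at least 1.5-fold higher in place of 4.

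Among other enzymes of serine, glycine, one-carbon, proline and related metabolism, 29 were detected, with 1 at least 1.5-fold higher and 1 lower (3.45% each, beside 10.7% and 6.4% of all detected genes) and a median of 0.09. Prodh, which degrades proline, was at 5.69 and 4.89, 1.75-fold higher, and Aldh1l1, a folate dehydrogenase, at 4.98 and 5.80, 1.77-fold lower. Both are dim, in bands where the SD of the differences was 0.49.

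Other amino acid carriers held the largest differences near the pathway. Of 32 measured, 9 were not detected. Of the 23 detected, 6 were at least 1.5-fold higher (26.1%, beside 10.7% of all detected genes) and 1 lower (4.35%, beside 6.4%). Slc38a9, the lysosomal arginine sensor of mTORC1, was at 7.36 after anti-CD84 and 6.19 after IgG1, 2.25-fold higher. Slc36a1, a lysosomal proton-coupled carrier, was at 7.48 and 6.60, 1.84-fold higher. Slc7a2, a cationic carrier like Slc7a1 and Slc7a3, was at 8.51 and 7.74, 1.71-fold higher. In the level bands of Slc38a9, Slc36a1 and Slc7a2 the SDs of the differences were 0.46, 0.40 and 0.35. Slc25a12, the mitochondrial aspartate and glutamate exchanger, was 1.70-fold higher and the taurine carrier Slc6a6 1.67-fold higher. Slc3a1 was at least 1.49-fold higher and Slc7a8 at least 1.31-fold lower, each with 1 array below the detection level. The lowest carrier detected on both arrays was Slc36a4, at 10.70 after anti-CD84 and 11.24 after IgG1, 1.46-fold lower. It is bright, in a band where the SD of the differences was 0.27. Of the 23 carriers 14 had a difference above 0 and 9 below.

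The endoplasmic reticulum branches of the stress response stayed within 1.5-fold. Of 24 detected genes of the unfolded protein response 0 differed by 1.5-fold in either direction. Beside them, 10.7% of all detected genes were past it upward and 6.4% downward. These genes are bright, with a median level of 9.09, and of detected genes at level 8 or more 7.91% were past it. The median difference was 0.09, that of all detected genes. The chaperone Hspa5 was at 9.62 and 9.79, a difference of -0.17. The highest was Dnajb9 at 0.41 and the lowest Dnajb11 at -0.21.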

How the data were processed

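RNA of 2 M210B4 cultures was measured on 1 array each. The deposited table holds log2 values, 1 per probe set and array. RMA and Partek made them, per the submitters' processing notes, and the sources used here give no version, build or set of arrays normalized together. Values run from 1.82 to 13.75, hence the log2 scale. RMA tends to compress differences of dim probe sets. Here differences are anti-CD84 minus IgG1. Of 41345 probe sets 23521 carry 1 symbol in GEO's platform annotation, 1814 several and 16010 none. Each gene is its brightest single-symbol probe set. Where 1 array is below the detection level, "at least" folds are counted from that level. Counts use measured values at 1.5-fold and 1.2-fold. With 1 array per group no test was possible, and the number of arrays limits precision. Members, lists, thresholds and the searched motif were chosen with earlier results of these data known. A list gene that is a member was left out of its list, and lists overlap. Named were members past 1.2-fold, on 1 side of the detection level or central to a role, and list genes past 1.5-fold or at the extremes, with some others named after their values were seen. Alternatives were centring, a loess curve (limma, span 0.4), quantile normalization, no filter, a stricter level (6.88), averaged probe sets and a floor at the detection level. A demand for detection on both arrays was added after seeing the data. Counting was checked on simulated data. The tools were limma 3.58.1 in R 4.3.3, and Python 3.11.15 with pandas 2.3.3, numpy 2.4.6 and matplotlib 3.10.9.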

Additional observations from a re-analysis of the deposited data

How the results depend on the processing

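The count of members at least 1.5-fold higher was 0 as measured, and 1 (Cbs) after the loess curve and after quantile normalization. The count at least 1.5-fold lower was 1 as measured and 2 (Slc7a3 and Psph) with the difference centred, with the loess curve removed and after quantile normalization. It was 0 under the stricter level, with a floor at the detection level, and with detection required on both arrays, each of which drops or flattens Slc7a3. At 1.2-fold, the 12 higher and 6 lower members became 7 and 8 with the difference centred, so the excess of higher members depended on the scaling. The same held for all detected genes at 1.5-fold, where 1427 higher and 850 lower became 1024 and 1128. The median of amino acid transport turned from 0.05 to -0.041 (centred), -0.049 (loess) and -0.043 (quantile), and that of the regulators and effectors became 0.00031 under the stricter level, which removes Stc2. The medians of synthesis and charging kept their sign and moved by at most 0.1 under every alternative run. Slc7a1 and Cars changed sign under all 3 rescalings and Nars under 2 of them. Among the wider lists, further ATF4 targets at least 1.5-fold higher went from 4 to 1 (centred) and 2 (loess, quantile), and the eIF2 regulators from 2 to 1 under each rescaling, with 1, 2 and 1 lower in place of 0. Carriers that are not members numbered 5 or 6 higher, and mitochondrial synthetases 2 or 3 higher, under every alternative run. The count of lower carriers was less stable, at 1 as measured, 2 under each rescaling, 3 with no filter and 0 under the stricter level. The median of these carriers went from 0.24 to 0.046 with no filter and 0.35 under the stricter level. That of the plotted mitochondrial list went from 0.20 to 0.082 (quantile) and 0.37 (stricter level). No paired analysis was possible because each group has 1 array, and for the same reason no array could be left out. With 1 array per group no difference has an error, and dim genes spread more, with SDs of differences from 0.62 under a mean level of 5 to 0.22 above 11. The first of these SDs is shaped in part by the detection filter.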
